A study of Arabidopsis thaliana with 27 samples.

Results

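Transcripts of the xyloglucan endotransglucosylase/hydrolase (XTH) family were followed through sorted leaf protoplasts and root protoplasts of Arabidopsis (*Arabidopsis thaliana*). The family was taken whole by name, from *XTH1* to *XTH33*, and no member was left out for its values. Earlier results of these data were known, including the authors' report of *XTH6* as upregulated in sorted palisade cells. All 33 genes were present in the count tables, out of 33323 nuclear genes. Xyloglucan is a hemicellulose that binds cellulose in the primary cell wall. Most XTH enzymes cut a xyloglucan chain and join the cut end to another chain, and a few hydrolyze it, so that the family is known for loosening and remodeling growing walls. In Arabidopsis several members are also known as genes of touch (*XTH22*, also called *TCH4*), shade or root growth.

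The 27 libraries fall into 9 groups of 3. Plants were 17 d old and grew in constant light of 50 µE m-2 s-1. In the *IQD22*pro::*GUS-mCit* line the promoter of *IQD22* drives a mCitrine fusion in the leaf palisade, the upper mesophyll layer, and elsewhere in the plant. Protoplasts of its leaves that held chlorophyll were sorted into palisade cells, with mCitrine, and reference cells, without it. The reference population therefore mixes the remaining chlorophyll-containing cells. Both populations were sampled without transcription inhibitors at low light (pools A to C), with inhibitors at low light (G to I), and with inhibitors after plants spent 2 h at 300 µE m-2 s-1 (J to L). The inhibitors were actinomycin D and cordycepin, added while the walls were digested. In the enhancer trap line JR11-2, GAL4-VP16 drives GFP mostly in the lower spongy mesophyll. Its chlorophyll-containing cells, without inhibitors at low light (D to F), were sorted into GFP-negative cells, which the labels call palisade, and GFP-positive cells, which the labels call reference. Root libraries held total root protoplasts of untransformed Col-0 plants, without inhibitors at low light and without a pool. Same-letter libraries came from 1 of 12 protoplast pools, each of many leaves.

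Counts on nuclear genes ranged from 15070000 to 38788930 per library. The floor used for detection, 3 counts, then corresponded to 0.0476 to 0.227 CPM, where CPM is counts per 1e+06 counts after TMM scaling. Replicates of a group correlated across genes at r = 0.969 to 0.992 on the log2 scale, and genes are not independent replicates. Markers of mesophyll and of root were in the organ the labels name, which does not test the labels of the sorted leaf populations. A list of 4 mesophyll genes summed to 8405 to 41005 CPM in leaf libraries and to at most 10.5 CPM in root libraries, whereas 5 root genes summed to at most 0.169 CPM in leaf libraries. In these bulk libraries, fewer cells of a type and less RNA per cell cannot be told apart. A gene was called differentially regulated at FDR < 0.05 and a fold-difference above 2 in edgeR's quasi-likelihood test. Interactions were called at FDR < 0.05 with no limit on fold, so their shares of called genes follow a looser rule. The pool entered the model as a block in comparisons of populations. Values are given as mean ± SD of 3 libraries, and log2 fold changes with their SE. Each comparison was scaled on its own, so the CPM of a library differ slightly between comparisons.

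Transcripts of the family were concentrated in a few members, and *XTH22*, *XTH18* and *XTH4* were among the 5 leading members by CPM per kb both in palisade cells without inhibitors and in root. Of the 33 members, 13 exceeded 3 counts in every library (*XTH4*, *XTH5*, *XTH6*, *XTH18*, *XTH19*, *XTH22*, *XTH23*, *XTH24*, *XTH27*, *XTH28*, *XTH30*, *XTH31* and *XTH32*). At most 3 counts were found in each of the 24 leaf libraries for 7 members (*XTH1*, *XTH2*, *XTH3*, *XTH10*, *XTH12*, *XTH20* and *XTH26*), and 4 of these (*XTH10*, *XTH12*, *XTH20* and *XTH26*) exceeded 3 counts in every root library. *XTH1* and *XTH2* did not exceed 3 counts in any library, so that their transcripts were not detectable at this depth. The summed CPM of all members ranged from 1427 to 2235 in palisade cells without inhibitors. With inhibitors it ranged from 639 to 802 at low light and from 1428 to 2057 at high light. In root libraries the sum ranged from 1042 to 1923. The 5 leading members held 93.1% of the family's CPM in JR11-2 GFP-negative cells, 84.6% in palisade cells with inhibitors at low light, and 63.4% in root.

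To compare genes, CPM were divided by transcript length in kb. In palisade cells without inhibitors the order began with *XTH22* at 514 ± 159 CPM per kb, *XTH18* at 279.9 ± 23.5 and *XTH24*, also known as *MERI5*, at 245 ± 76.7. The level of *XTH27* was 74.3 ± 14.3 CPM per kb there and that of *XTH4* was 51.9 ± 25.6. The means of *XTH18* and *XTH24*, and of *XTH27* and *XTH4*, differed by less than the larger SD of each pair. With inhibitors at low light *XTH24* came ahead of *XTH22*, at 152 ± 27.3 against 126 ± 15.1 CPM per kb in palisade cells, a gap smaller than the SD of *XTH24* only. At high light *XTH24* led clearly, at 709 ± 181 CPM per kb against 232 ± 40.8 for *XTH22* in palisade cells. In root the order was *XTH18* (179 ± 87.2 CPM per kb), *XTH19* (147 ± 60.4), *XTH22* (135 ± 26.1), *XTH4* (116 ± 33.2) and *XTH15* (113 ± 34.5), neighbors in which differed by less than their SD. The level of *XTH6* was 22.1 ± 5.52 CPM per kb in palisade cells without inhibitors.

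**Figure D1:**
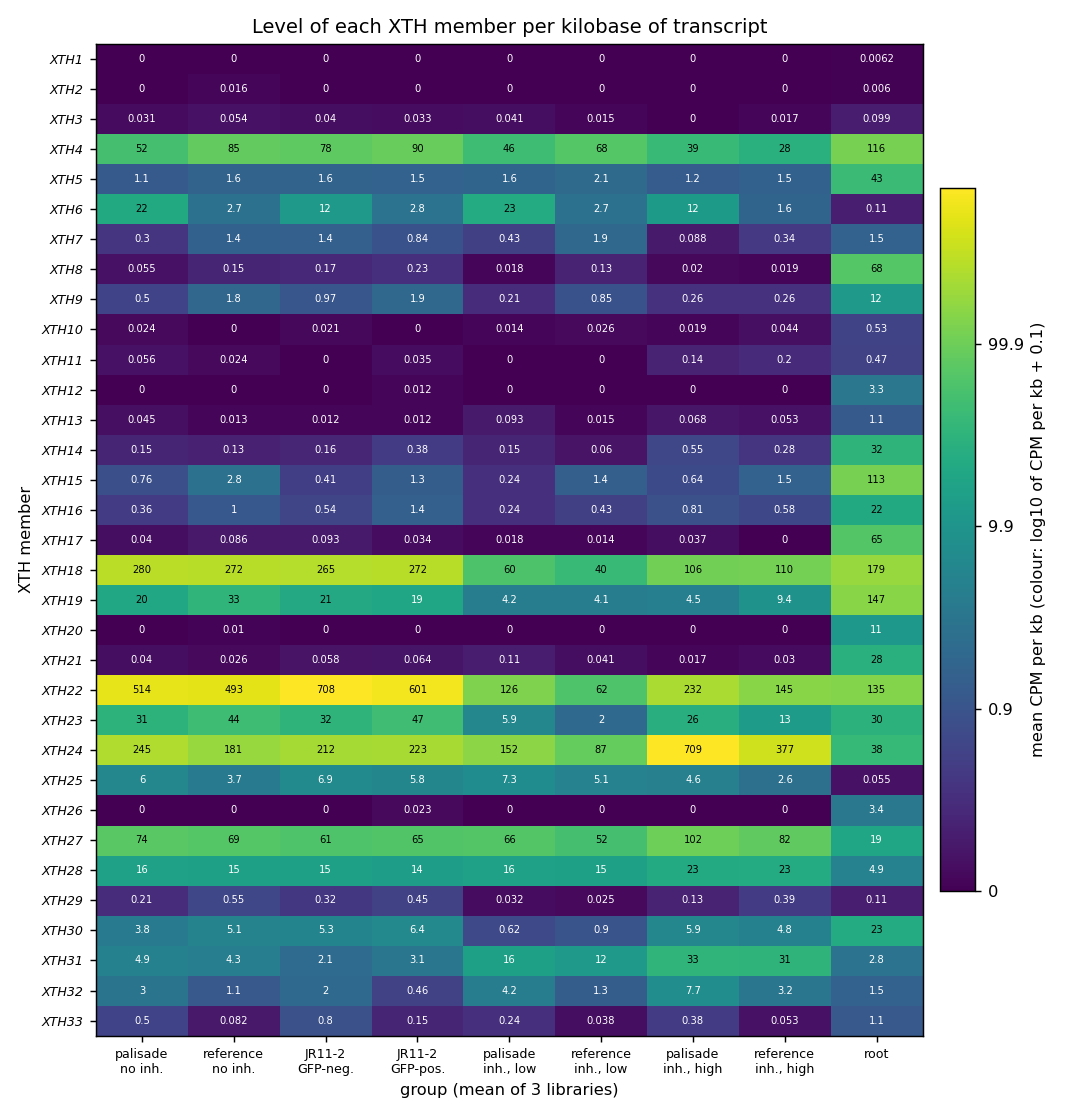
Mean level of each XTH member in CPM per kb of transcript (number and color, the color on a log10 scale with 0.1 added) in the 9 groups, each the mean of 3 libraries. *XTH22*, *XTH18* and *XTH24* lead in leaf without inhibitors, and a block of members including *XTH8*, *XTH12*, *XTH17*, *XTH20* and *XTH26* reaches its highest mean in root.

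Sorted palisade cells differed from reference cells of the same pools in a limited set of members, the comparison that the sort was made for. Without inhibitors, 3 of 23 tested members were upregulated in the palisade (*XTH6*, *XTH32* and *XTH33*) and 5 were downregulated (*XTH7*, *XTH9*, *XTH15*, *XTH16* and *XTH29*), where 2.04% of all tested genes were called higher and 6.7% lower. At low light with inhibitors 3 of 22 were upregulated (*XTH6*, *XTH23* and *XTH32*) and 3 downregulated (*XTH7*, *XTH9* and *XTH15*), where 2.13% of all tested genes were called higher and 5.56% lower. At high light 3 of 22 were upregulated (*XTH6*, *XTH32* and *XTH33*) and 2 downregulated (*XTH15* and *XTH19*), where 2.06% of all tested genes were called higher and 6.36% lower. In JR11-2, 3 of 23 were higher in GFP-negative cells (*XTH6*, *XTH32* and *XTH33*) and 2 lower (*XTH15* and *XTH16*), where 0.714% of all tested genes were called higher and 1.44% lower. *XTH6* and *XTH32* were thus called higher, and *XTH15* lower, in all 4 comparisons. The median log2 fold change of the tested members was -0.45, 0.24, 0.27 and -0.093 in these comparisons, and that of all tested genes was -0.0029, -0.028, -0.014 and -0.0086.

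Among called members *XTH6* (AT5G65730) had the largest fold-difference in favor of the palisade in each *IQD22* comparison. Without inhibitors its 3 palisade libraries held 20.2, 31.1 and 32.3 CPM, compared with 2.17, 3.96 and 4.35 CPM in the matching reference libraries. The groups did not overlap. The means were 27.9 ± 6.64 and 3.49 ± 1.16 CPM, and the log2 fold change was 3.01 ± 0.11 (SE; FDR = 3.51e-12). With inhibitors at low light the palisade libraries had 35.6, 45.2 and 25.1 CPM and the reference libraries 5.29, 5.28 and 2.67, again without overlap, at 3.00 ± 0.12 (SE; FDR = 2.27e-13). After high light the palisade libraries had 26.5, 15.1 and 7.90 CPM and the reference libraries 4.30, 1.66 and 0.808. Levels spread widely between high light pools in both populations, yet each pool gave a higher palisade value, at 2.93 ± 0.16 (SE; FDR = 9.26e-17). In JR11-2, GFP-negative cells had 24.5, 16.6 and 7.01 CPM and GFP-positive cells 5.27, 4.65 and 1.59, at 2.05 ± 0.12 (SE; FDR = 1.51e-10). The groups again did not overlap. The difference between populations of *XTH6* was larger in the *IQD22* line than in JR11-2, by 0.97 ± 0.17 (SE; FDR = 1.39e-04) on the log2 scale in the test of the interaction.

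*XTH32* (AT2G36870), which belongs with *XTH31* to a branch of the family set apart by sequence, was the other member called higher in every comparison of populations. Without inhibitors it had 2.54, 4.37 and 3.48 CPM in palisade and 1.14, 1.82 and 1.05 CPM in reference libraries, at 1.38 ± 0.20 (SE; FDR = 3.58e-05). At low light with inhibitors the values were 6.92, 5.90 and 4.67 CPM in palisade and 1.39, 2.55 and 1.84 CPM in reference libraries, at 1.61 ± 0.23 (SE; FDR = 1.48e-05). No palisade library overlapped a reference library in either comparison. At high light it had 8.90, 8.13 and 11.6 against 3.21, 3.64 and 5.46 CPM, at 1.22 ± 0.15 (SE; FDR = 3.32e-08). In JR11-2 it had 3.40, 2.53 and 1.43 CPM in GFP-negative and 1.10, 0.340 and 0.305 CPM in GFP-positive cells, at 2.099 ± 0.28 (SE; FDR = 1.08e-05). The groups were separate there too.

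*XTH33* (AT1G10550), predicted to be held at the plasma membrane, was close to the floor, so its fold-differences rest on few counts. Without inhibitors it had 5, 8 and 26 counts in palisade and 5, 0 and 2 counts in reference libraries, a ratio of scaled counts of 5.85 (95% interval, 2.59 to 15.5). At high light it had 8, 9 and 3 counts in palisade and 2, 1 and 0 in reference libraries, a ratio of 7.55 (95% interval, 2.24 to 39.7). After scaling, the palisade value was the higher in all 3 pools each time, although pool 1 without inhibitors had 5 counts in both populations. In JR11-2 it had 30, 28 and 7 counts in GFP-negative and 1, 12 and 0 in GFP-positive cells, with an overlap between the groups, at 2.39 ± 0.57 (SE; FDR = 0.00411). With inhibitors at low light the difference did not pass the test (FDR = 0.115). Without pool 3 of the comparison without inhibitors the log2 fold change was 1.46 and the call was lost (FDR = 0.271), at high light it was lost on leaving out any pool (FDR = 0.117 without pool 2 and 0.0519 without pool 3, too few counts to be tested without pool 1), and in JR11-2 without pool 1 (FDR = 0.149) or pool 2 (too few counts to be tested). DESeq2 did not call it without inhibitors (adjusted p = 0.0555) or at high light (adjusted p = 0.106).

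**Figure D2:**
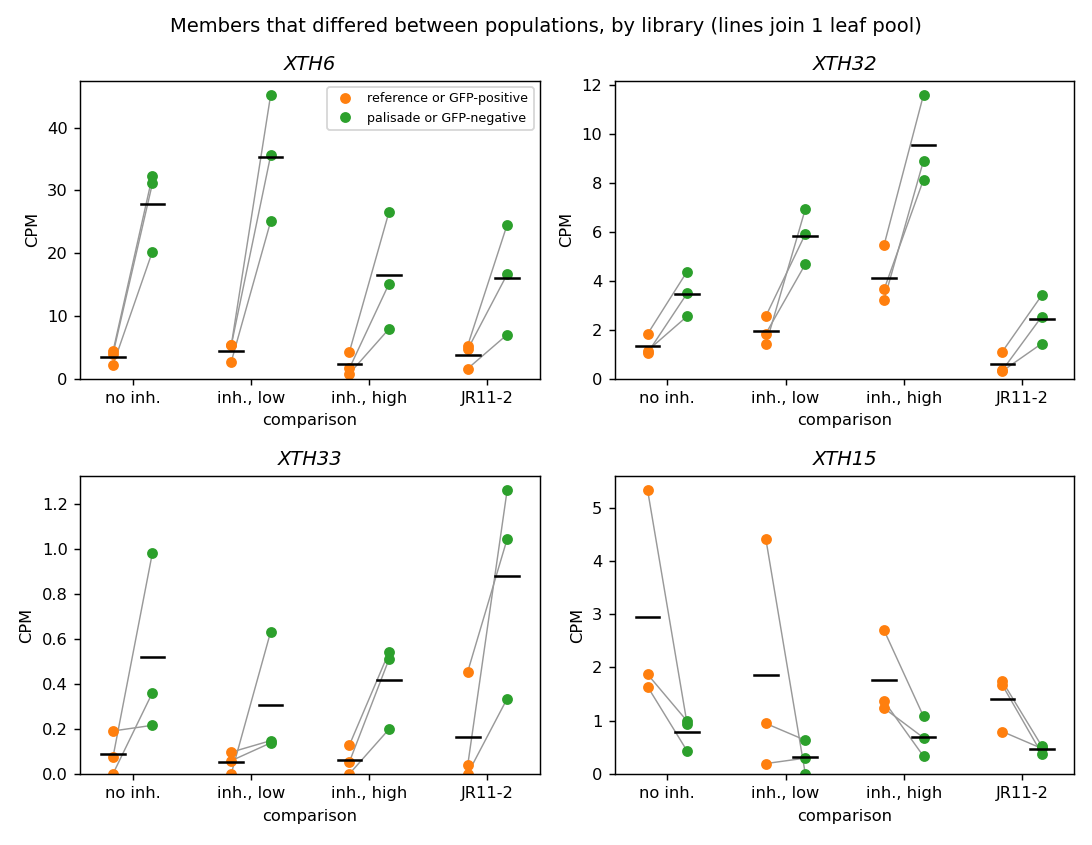
Level of *XTH6*, *XTH32*, *XTH33* and *XTH15* in CPM in each library of the 4 comparisons of populations, with lines joining libraries of 1 leaf pool and bars at the mean of 3. The palisade or GFP-negative point is the higher of its pool throughout for *XTH6*, *XTH32* and *XTH33*. For *XTH33* in pool 1 without inhibitors this comes from scaling alone, since the counts were equal. For *XTH15* that point is the lower in every pool but 1 of the low light pools with inhibitors.

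The start regions of the genes with higher levels in the palisade were read from the RefSeq annotation of TAIR10.1, as the 250 bases before the annotated start, to show what the sequences near the start of these members hold. Capitals mark matches, on either strand, to the W box (TTGACC or TTGACT), the rapid stress response element (CGCGTT), the L1 box (TAAATGCA or TAAATGTA, known from epidermal genes) and the TATA box (TATAAA).
*XTH6* (chr5:26298478-26298727, plus strand): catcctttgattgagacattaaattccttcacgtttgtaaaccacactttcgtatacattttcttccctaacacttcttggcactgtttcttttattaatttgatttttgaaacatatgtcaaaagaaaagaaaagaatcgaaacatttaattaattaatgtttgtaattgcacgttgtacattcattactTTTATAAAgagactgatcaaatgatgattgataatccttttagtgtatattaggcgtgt
*XTH32* (chr2:15474829-15475078, minus strand): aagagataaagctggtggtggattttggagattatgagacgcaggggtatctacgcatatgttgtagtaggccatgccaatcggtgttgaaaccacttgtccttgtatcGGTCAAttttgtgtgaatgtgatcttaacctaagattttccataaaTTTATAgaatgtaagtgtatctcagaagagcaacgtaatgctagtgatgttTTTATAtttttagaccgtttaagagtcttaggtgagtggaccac
*XTH33* (chr1:3481042-3481291, minus strand): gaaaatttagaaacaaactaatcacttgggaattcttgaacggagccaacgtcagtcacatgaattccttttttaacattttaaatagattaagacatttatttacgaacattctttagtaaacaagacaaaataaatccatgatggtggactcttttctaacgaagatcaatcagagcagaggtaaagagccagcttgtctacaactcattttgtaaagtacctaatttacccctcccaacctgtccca
The *XTH6* window held a TATA box on each strand, overlapping by 4 bases, that began 59 and 57 bases before the start. The *XTH32* window held a W box 141 bases before the start. Its TATA boxes, 95 and 44 bases before the start, lay on the strand opposite to the one printed. The *XTH33* window held none of these motifs. L1 boxes occurred in none of the 33 members and in 4.49% of 27443 windows of protein-coding genes. TATA boxes occurred in 18 of 33 members and in 47.3% of all windows.

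The members called lower in the palisade in more than 1 comparison (*XTH7*, *XTH9*, *XTH15* and *XTH16*) were all measured at a few CPM. *XTH15* (AT4G14130), known from shade responses, had 0.431, 0.991 and 0.945 CPM in palisade and 1.64, 1.87 and 5.33 CPM in reference libraries without inhibitors, at -1.87 ± 0.28 (SE; FDR = 4.97e-05). At high light it had 1.08, 0.677 and 0.329 against 2.70, 1.23 and 1.36 CPM, at -1.33 ± 0.36 (SE; FDR = 0.00329). The groups did not overlap in either. In JR11-2 it had 0.378, 0.521 and 0.477 CPM in GFP-negative and 1.67, 1.74 and 0.794 CPM in GFP-positive cells, at -1.62 ± 0.34 (SE; FDR = 0.00136). At low light with inhibitors it had 0.294, 0 and 0.631 against 0.192, 4.41 and 0.946 CPM, at -2.26 ± 0.70 (SE; FDR = 0.0190). That call rested on the high reference library of pool 2, since without pool 2 the log2 fold change was -0.24 (FDR = 0.854), and DESeq2 gave an adjusted p of 0.692. DESeq2 also missed the high light call of *XTH15* (adjusted p = 0.0595).

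*XTH7* had 0.215, 0.135 and 0.642 CPM in palisade and 0.951, 2.09 and 1.91 CPM in reference libraries without inhibitors, at -2.27 ± 0.37 (SE; FDR = 1.38e-04). With inhibitors at low light it had 0.663, 0.412 and 0.631 against 2.64, 3.25 and 2.50 CPM, at -2.28 ± 0.33 (SE; FDR = 1.84e-05). In both comparisons the groups were separate, and in JR11-2 the change of *XTH7* was 0.72 ± 0.25 (SE; FDR = 0.0501). *XTH7* thus pointed the other way in JR11-2 without passing the test, and its difference between lines passed the test, at -2.97 ± 0.45 (SE; FDR = 2.15e-05). *XTH9*, known from shoot growth, had 0.215, 0.315 and 1.44 CPM in palisade and 1.03, 0.934 and 5.14 CPM in reference libraries without inhibitors, at -1.85 ± 0.26 (SE; FDR = 2.71e-05). Its groups overlapped, and the third pool was the highest in both populations. At low light with inhibitors it had 0.442, 0.206 and 0.316 against 1.87, 1.97 and 0.501 CPM, at -2.08 ± 0.48 (SE; FDR = 0.00223), and this call was lost without pool 2 (FDR = 0.0608). *XTH16* had 0.0862, 0.631 and 0.416 CPM in palisade and 0.380, 1.02 and 1.99 CPM in reference libraries without inhibitors, at -1.60 ± 0.38 (SE; FDR = 0.00358), and 0.797, 0.708 and 0.286 against 2.62, 1.51 and 0.672 CPM in JR11-2, at -1.39 ± 0.29 (SE; FDR = 0.00154). The groups overlapped both times, although each pool gave the lower value in palisade or GFP-negative cells. The *XTH16* calls were lost without pool 3 (FDR = 0.193) and pool 1 (FDR = 0.123), respectively.

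*XTH19* and *XTH23* were called between populations in 1 condition each. At high light *XTH19* had 5.53, 5.30 and 5.66 CPM in palisade and 10.1, 10.8 and 14.8 CPM in reference libraries, at -1.11 ± 0.13 (SE; FDR = 3.44e-08), a call that was lost without pool 3, where the log2 fold change was -0.96. With inhibitors at low light *XTH23* had 11.9, 6.65 and 6.25 CPM in palisade and 3.61, 3.48 and 2.17 CPM in reference libraries, at 1.41 ± 0.18 (SE; FDR = 5.61e-06). The groups were separate for both genes. For *XTH23* the log2 fold change without inhibitors was -0.50 ± 0.11 (SE; FDR = 0.00209), of the other sign and under the fold limit, and at high light it was 0.87 ± 0.09 (SE; FDR = 1.15e-09), also under that limit. For *XTH19* the value without inhibitors was -0.71 ± 0.089 (SE; FDR = 9.28e-06), in separate groups and under the fold limit. *XTH29*, the remaining downregulated member, had 10, 2 and 6 counts in palisade and 23, 9 and 20 counts in reference libraries without inhibitors, and the call was lost without pool 3 (FDR = 0.1001).

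**Figure D3:**
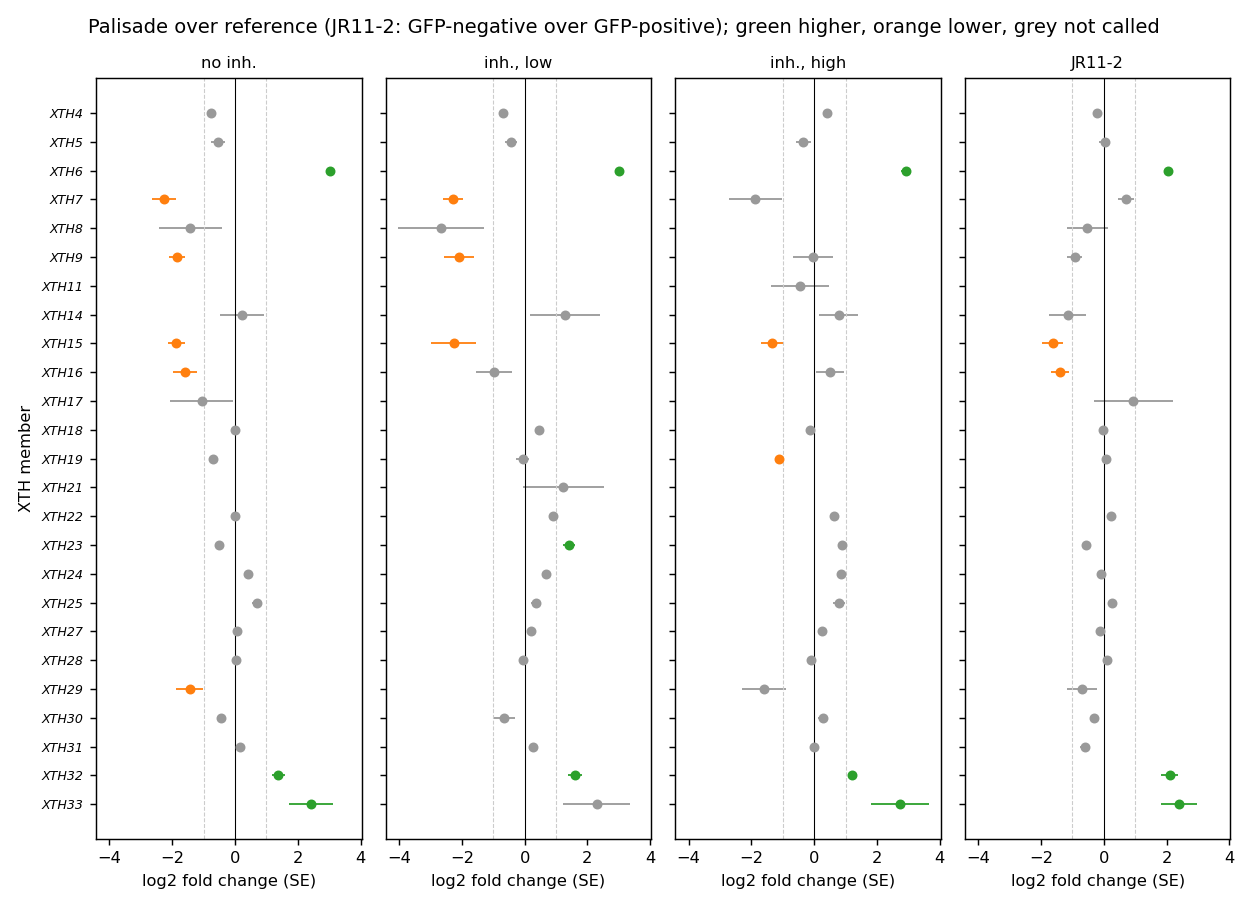
Log2 fold change of each tested XTH member, palisade over reference in the *IQD22* line and GFP-negative over GFP-positive in JR11-2, with bars of 1 SE and dashed lines at a fold-difference of 2. Green members are called higher, orange members lower and gray members not called, and *XTH6* and *XTH32* are green in all 4 panels.

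Reference libraries also held more transcripts of other cell types. Without inhibitors 7 epidermis genes summed to 3.83 to 5.10 CPM in palisade and 7.29 to 12.4 CPM in reference libraries, 3 bundle sheath genes to 16.4 to 25.0 and 65.4 to 85.7 CPM, and 5 phloem genes to 9.98 to 13.5 and 25.8 to 52.4 CPM. Of these, 3 of 6 tested epidermis genes, 2 of 3 bundle sheath genes and 4 of 5 phloem genes were downregulated in palisade cells, and the epidermis marker *PDF1* was at 0 in both groups. In JR11-2 the epidermis sums were 7.11 to 14.3 CPM in GFP-negative and 5.93 to 7.45 CPM in GFP-positive cells, the bundle sheath sums 23.2 to 34.3 and 39.2 to 63.6 CPM, and the phloem sums 23.4 to 65.1 and 18.4 to 36.0 CPM. Guard cell genes summed to at most 1.87 CPM in any leaf library. The part of these cells in the lower levels of *XTH7*, *XTH9*, *XTH15* and *XTH16* in palisade cells was not tested.

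Protoplasts lose their walls during the digestion, and transcription inhibitors were present or absent while this went on. The comparison asks which transcripts differed in level between these libraries. All leaf libraries came from digested leaves, so the change from intact leaves was not measured. In palisade cells 5 of 22 tested members were higher without inhibitors (*XTH18*, *XTH19*, *XTH22*, *XTH23* and *XTH30*) and *XTH31* was lower, where 19.1% of all tested genes were called higher and 0.868% lower. In reference cells 7 of 23 were higher (*XTH18*, *XTH19*, *XTH22*, *XTH23*, *XTH24*, *XTH29* and *XTH30*) and *XTH31* was again lower, where 20.9% of all tested genes were called higher and 1.16% lower. The calls of the 5 genes and of *XTH31* in palisade cells were thus made in reference cells too. The libraries without and with inhibitors came from different pools, so pool and inhibitors cannot be told apart.

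*XTH22* (AT5G57560), the touch gene *TCH4*, led the family per kb of transcript in leaf cells without inhibitors. It had 519.8, 748 and 972 CPM in palisade libraries without inhibitors and 162, 202 and 164 CPM with them, at 2.09 ± 0.23 (SE; FDR = 4.00e-05). In reference cells it had 665, 701 and 1081 CPM without and 102, 118 and 94.2 CPM with inhibitors, at 2.96 ± 0.20 (SE; FDR = 4.70e-07). The groups were far apart in both populations. *XTH18* (AT4G30280), known from root growth, had 353, 287 and 332 CPM without and 76.1, 68.0 and 53.4 CPM with inhibitors in palisade cells, at 2.30 ± 0.18 (SE; FDR = 2.38e-06). In reference cells the values were 393, 302 and 380.2 and 51.0, 64.8 and 43.8 CPM, at 2.75 ± 0.18 (SE; FDR = 2.47e-07). The groups were separate again. Its tandem neighbor *XTH19* had 27.5, 23.8 and 23.8 CPM without and 3.75, 5.51 and 5.71 CPM with inhibitors in palisade cells, at 2.32 ± 0.18 (SE; FDR = 2.90e-06), and 47.2, 48.2 and 40.6 against 6.66, 6.54 and 4.17 CPM in reference cells, at 2.97 ± 0.18 (SE; FDR = 1.62e-07).

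*XTH23* had 35.6, 35.9 and 45.8 CPM without and 10.1, 5.74 and 5.28 CPM with inhibitors in palisade cells, at 2.48 ± 0.24 (SE; FDR = 1.38e-05). In reference cells it had 56.8, 42.4 and 91.0 against 3.35, 3.27 and 2.06 CPM, at 4.45 ± 0.30 (SE; FDR = 4.26e-07). This was the largest log2 fold change fitted for a member in reference cells. *XTH30* had 5.92, 4.61 and 4.26 CPM without and 0.500, 0.947 and 0.854 CPM with inhibitors in palisade cells, at 2.66 ± 0.29 (SE; FDR = 3.60e-05), and 10.2, 5.80 and 6.66 against 1.43, 1.36 and 1.21 CPM in reference cells, at 2.50 ± 0.26 (SE; FDR = 1.41e-05). *XTH24* had 161, 199.6 and 323 CPM without and 110.1, 132 and 92.0 CPM with inhibitors in reference cells, at 1.03 ± 0.24 (SE; FDR = 0.00430). This last value sat at the fold limit, and the call was lost with upper-quartile scaling (0.77), with the replicate number as a block (0.98) and without the third reference library of either group (0.70 and 0.93). *XTH29* had 52 counts over the 3 reference libraries without inhibitors and 2 with them, a ratio of 24.2 (95% interval, 6.38 to 205).

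*XTH31* (AT3G44990) was lower without inhibitors. It encodes an enzyme with xyloglucan hydrolase activity that is known from aluminum responses in root. It had 6.33, 7.66 and 4.74 CPM without and 20.6, 19.1 and 17.3 CPM with inhibitors in palisade cells, at -1.61 ± 0.19 (SE; FDR = 6.05e-05), and 5.14, 8.26 and 5.27 against 14.3, 18.9 and 18.9 CPM in reference cells, at -1.48 ± 0.20 (SE; FDR = 1.43e-04). The groups did not overlap. *XTH6* had 21.6, 32.8 and 34.4 CPM without and 30.2, 39.0 and 21.2 CPM with inhibitors in palisade cells, at -0.025 ± 0.24 (SE; FDR = 0.948), and -0.021 ± 0.30 (SE; FDR = 0.959) in reference cells, neither of which passed the test. With upper-quartile scaling the median of all genes moved from 0.033 to -0.27 in palisade and from -0.04 to -0.30 in reference cells. The share of higher genes among the genes called then fell from 95.6% to 76.4% and from 94.7% to 75.3%, while no member call other than that of *XTH24* was lost.

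The start regions of 3 of the members with higher levels without inhibitors are given with the same marks, since motifs of wounding and stress responses were searched in them.
*XTH22* (chr5:23308681-23308930, minus strand): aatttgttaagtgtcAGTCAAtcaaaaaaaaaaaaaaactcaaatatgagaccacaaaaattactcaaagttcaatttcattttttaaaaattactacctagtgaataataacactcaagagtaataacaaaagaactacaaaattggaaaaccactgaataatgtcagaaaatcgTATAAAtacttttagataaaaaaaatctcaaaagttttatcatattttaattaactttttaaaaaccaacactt
*XTH18* (chr4:14827212-14827461, minus strand): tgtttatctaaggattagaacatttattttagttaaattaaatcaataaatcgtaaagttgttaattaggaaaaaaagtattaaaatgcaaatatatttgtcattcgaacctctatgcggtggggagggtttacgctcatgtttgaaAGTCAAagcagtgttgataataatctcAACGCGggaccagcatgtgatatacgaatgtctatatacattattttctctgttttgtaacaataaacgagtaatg
*XTH23* (chr4:13128144-13128393, plus strand): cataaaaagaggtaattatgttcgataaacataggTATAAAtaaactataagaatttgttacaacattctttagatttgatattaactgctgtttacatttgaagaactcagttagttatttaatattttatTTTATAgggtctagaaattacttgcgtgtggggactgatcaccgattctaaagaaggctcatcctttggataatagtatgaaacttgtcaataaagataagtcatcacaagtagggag
The *XTH22* window held a W box 235 bases before the start and a TATA box 74 bases before it. The *XTH18* window held a W box 103 bases and a rapid stress response element 76 bases before the start. The *XTH23* window held TATA boxes 215 and, on the opposite strand, 118 bases before the start and neither of the stress motifs. W boxes occurred in 6 of 33 members (*XTH2*, *XTH8*, *XTH18*, *XTH20*, *XTH22* and *XTH32*), or 18.2%, and in 28.4% of all windows. Rapid stress response elements occurred in 3 of 33 members (*XTH13*, *XTH18* and *XTH20*) and in 2.59% of all windows. The other members called higher without inhibitors (*XTH19*, *XTH24*, *XTH29* and *XTH30*) held neither of these stress motifs.

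The size of the inhibitor difference depended on the population for 4 of 24 tested members, where 0.346% of all tested genes were called higher and 4.4% lower. In each it was smaller in palisade than in reference cells, and the interaction was -2.03 ± 0.22 (SE; FDR = 4.11e-07) for *XTH23*, -0.98 ± 0.13 (SE; FDR = 4.81e-06) for *XTH22*, -0.74 ± 0.19 (SE; FDR = 0.0195) for *XTH19* and -0.55 ± 0.13 (SE; FDR = 0.0102) for *XTH18* on the log2 scale. The interactions of *XTH18* and *XTH19* were each lost on leaving out single pools, with FDR of up to 0.205 and 0.567.

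Other touch genes were also higher without inhibitors. *TCH2*, a calmodulin-like protein gene, had log2 fold changes of 1.09 ± 0.15 (SE; FDR = 1.89e-04) in palisade and 1.68 ± 0.12 (SE; FDR = 8.13e-07) in reference cells. *TCH1*, a calmodulin gene, had 1.19 ± 0.18 (SE; FDR = 4.89e-04) and 1.30 ± 0.17 (SE; FDR = 8.04e-05). *TCH3*, a calmodulin-like protein gene, had 1.38 ± 0.15 (SE; FDR = 2.04e-05) in reference cells, and in palisade cells its value was 0.92 ± 0.17 (SE; FDR = 0.00192), below the fold limit. Of 20 genes that make or trim xyloglucan, 6 of 19 tested for the palisade and 8 of 20 for the reference population were called higher and none lower, with medians of 0.36 and 0.26, where 19.1% and 20.9% of all tested genes were called higher. Among the 5 side chain transferases 4 were called higher in each population, including the galactosyltransferase gene *MUR3* at 2.76 ± 0.19 (SE; FDR = 1.12e-06) and 3.24 ± 0.13 (SE; FDR = 8.60e-09). The xylosyltransferase gene *XXT5* had 2.68 ± 0.15 (SE; FDR = 4.04e-07) and 3.04 ± 0.12 (SE; FDR = 8.98e-09). The 5 trimming glycosidases were not called in either population.

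Between populations, the pathway list changed in 3 of 20 genes without inhibitors, in 2 of 17 at low and 2 of 17 at high light with inhibitors, where 2.04%, 2.13% and 2.06% of all tested genes were called higher and 6.7%, 5.56% and 6.36% lower, and in none of 20 in JR11-2, where 4 had an unadjusted p below 0.05 in edgeR's test, all 4 also at FDR < 0.05 but under the fold limit. *BGLC1*, a β-glucosidase gene of xyloglucan trimming, was lower in palisade cells in all 3 *IQD22* comparisons, from -2.75 to -2.06, and *BGAL10*, the β-galactosidase gene of the same process, was higher, from 1.10 to 1.24.

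High light for 2 h was compared with low light, with inhibitors present in both, to ask what light changed in each population. In palisade cells 4 of 21 tested members were upregulated (*XTH16*, *XTH23*, *XTH24* and *XTH30*) and 2 downregulated (*XTH6* and *XTH7*), where 8.07% of all tested genes were called higher and 5.15% lower. In reference cells 9 of 21 were upregulated (*XTH18*, *XTH19*, *XTH22*, *XTH23*, *XTH24*, *XTH29*, *XTH30*, *XTH31* and *XTH32*) and 4 downregulated (*XTH4*, *XTH7*, *XTH9* and *XTH25*), where 10.1% of all tested genes were called higher and 6.57% lower. The median log2 fold change of the members was 0.72 in palisade and 0.46 in reference cells, and that of all genes was -0.0054 and -0.022. Light levels also came from different pools and cannot be told apart from them.

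*XTH24*, *XTH30* and *XTH23* were upregulated in both populations. *XTH24* had 859.7, 862 and 527 CPM at high and 193, 184 and 143 CPM at low light in palisade cells, at 2.12 ± 0.20 (SE; FDR = 1.07e-05), and 606, 479.7 and 323 against 123, 147 and 102 CPM in reference cells, at 1.92 ± 0.21 (SE; FDR = 3.04e-05). *XTH30*, known from salt and freezing responses, had 6.27, 9.81 and 5.76 CPM at high and 0.545, 1.01 and 0.913 CPM at low light in palisade cells, at 3.13 ± 0.30 (SE; FDR = 1.17e-05). In reference cells it had 8.69, 7.54 and 4.45 against 1.59, 1.52 and 1.35 CPM, at 2.20 ± 0.28 (SE; FDR = 7.62e-05). All groups were separate. *XTH23* had 45.9, 27.7 and 17.9 CPM at high and 11.0, 6.11 and 5.65 CPM at low light in palisade cells, at 2.01 ± 0.32 (SE; FDR = 4.74e-04), and 26.6, 16.8 and 12.4 against 3.73, 3.64 and 2.28 CPM in reference cells, at 2.52 ± 0.28 (SE; FDR = 3.50e-05). In reference cells these 3 genes were also called higher without than with inhibitors, a comparison that shares the low light libraries with inhibitors. *XTH29* had 27 counts over the 3 reference libraries at high light and 2 at low light, a ratio of 14.6 (95% interval, 3.67 to 127).

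In reference cells *XTH18* had 151, 132 and 145 CPM at high and 56.7, 72.2 and 48.5 CPM at low light, at 1.27 ± 0.14 (SE; FDR = 3.42e-05). *XTH31* had 35.5, 46.5 and 53.7 against 15.9, 21.1 and 20.9 CPM, at 1.23 ± 0.17 (SE; FDR = 1.22e-04), and *XTH32* had 3.45, 3.97 and 6.01 against 1.44, 2.67 and 1.93 CPM, at 1.17 ± 0.29 (SE; FDR = 0.00700). The groups of these genes did not overlap, and the *XTH32* call was lost without the first low light (0.98) or the third high light library (0.91). *XTH22* had 284, 203 and 227 CPM at high and 113, 131 and 104 CPM at low light, at 1.03 ± 0.14 (SE; FDR = 1.45e-04), and *XTH19* had 10.9, 11.8 and 16.3 against 7.42, 7.28 and 4.62 CPM, at 1.01 ± 0.21 (SE; FDR = 0.00257). Both sat at the fold limit and were below it with upper-quartile scaling, at 0.94 and 0.92, and on leaving out either of 2 libraries each, at 0.90 and 0.96 for *XTH22* and 0.82 and 0.83 for *XTH19*. In palisade cells *XTH31* and *XTH32* had log2 fold changes of 0.96 ± 0.17 (SE; FDR = 0.00102) and 0.78 ± 0.20 (SE; FDR = 0.00992), under the fold limit.

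Other members had less transcript at high light. *XTH4* (AT2G06850), long known as *EXGT-A1*, had 54.0, 42.6 and 37.7 CPM at high and 149, 116 and 109.6 CPM at low light in reference cells, at -1.48 ± 0.16 (SE; FDR = 2.24e-05), whereas in palisade cells it had 59.4, 64.2 and 35.7 against 66.1, 69.9 and 64.4 CPM, at -0.33 ± 0.18 (SE; FDR = 0.180). *XTH25* had 3.93, 2.28 and 3.17 against 5.33, 8.62 and 7.31 CPM in reference cells, at -1.18 ± 0.25 (SE; FDR = 0.00247). *XTH7* had 0.621, 0.292 and 0.445 against 2.74, 3.40 and 2.63 CPM, at -2.69 ± 0.34 (SE; FDR = 7.69e-05), and *XTH9* had 0.690, 0.292 and 0.223 against 1.94, 2.06 and 0.526 CPM, at -1.95 ± 0.58 (SE; FDR = 0.0175). The *XTH9* groups overlapped, and the call was lost on leaving out any of 4 libraries, with a largest FDR of 0.0787, while the *XTH25* call was lost without reference library 2 at high light, at -0.99. In palisade cells *XTH7* (25 counts at low and 5 at high light) and *XTH16* (13 and 42 counts) were below 1 CPM, and their calls were lost on leaving out any of 3 and 2 libraries, with FDR of up to 0.0742 and 0.0740. *XTH6* had 25.4, 14.5 and 7.59 CPM at high and 32.9, 41.5 and 22.6 CPM at low light in palisade cells, with 1 high light library within the low light range, at -1.03 ± 0.33 (SE; FDR = 0.0283). This call was lost in DESeq2 (adjusted p = 0.123) and on leaving out any of 3 libraries, at the smallest -0.72. In reference cells *XTH6* had 4.62, 1.81 and 0.891 against 5.48, 5.52 and 2.81 CPM, at -0.95 ± 0.46 (SE; FDR = 0.117), and with the replicate number as a block the value was -1.06 (FDR = 0.00921) and without the first high light library it was -1.77.

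**Figure D4:**
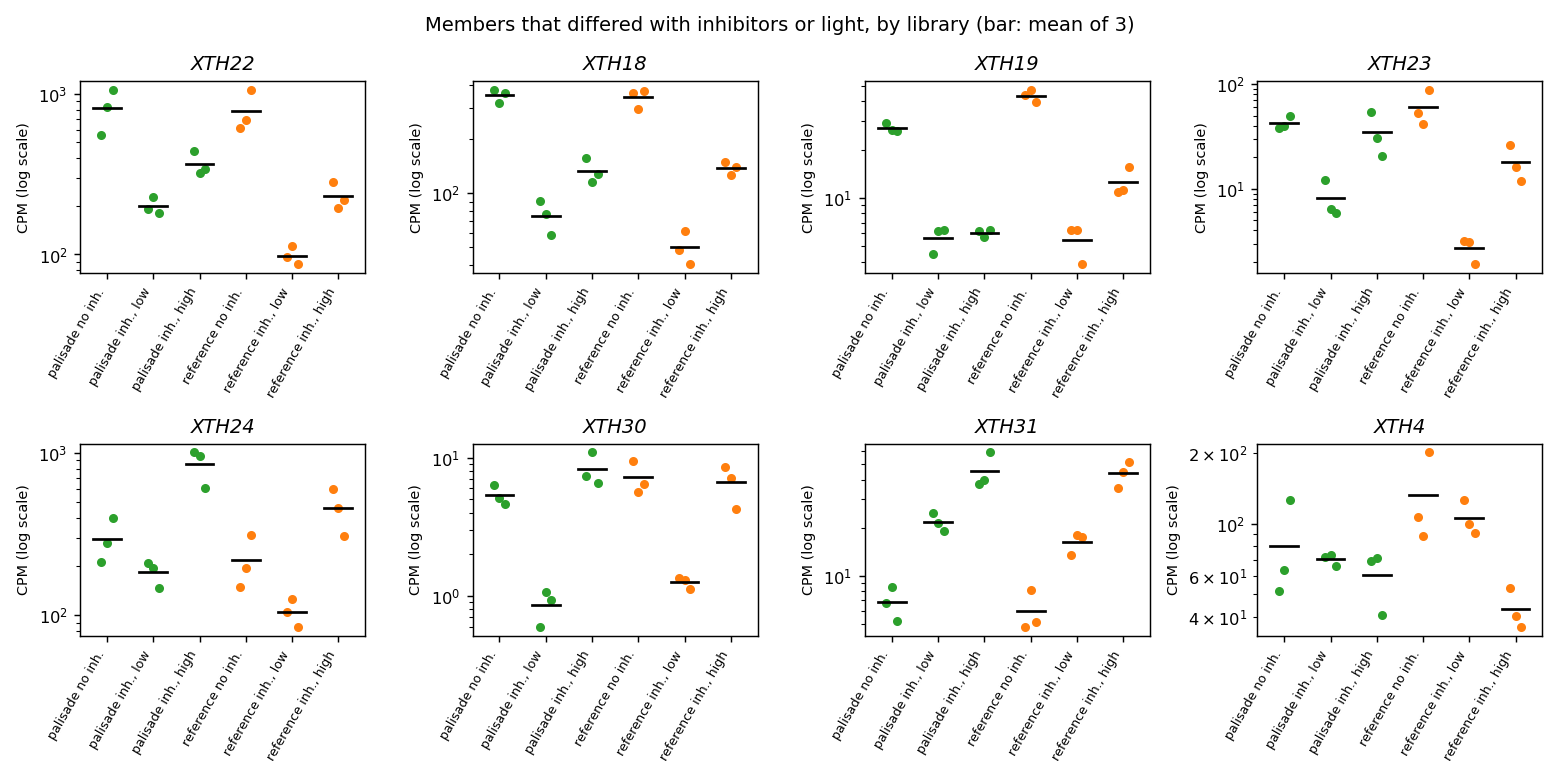
Level in CPM on a log axis of 8 members in each palisade (green) and reference (orange) library of the *IQD22* line without inhibitors, with inhibitors at low light and with inhibitors at high light, with bars at the mean of 3. *XTH22*, *XTH18* and *XTH19* are highest without inhibitors, *XTH24* and *XTH31* highest at high light, and *XTH4* is lowest in reference cells at high light.

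The response to light differed between populations for 3 of 25 tested members, where 1.83% of all tested genes were called higher and 3.71% lower. For *XTH4* the difference was 1.09 ± 0.14 (SE; FDR = 1.87e-06) on the log2 scale. At low light with inhibitors *XTH4* had 71.4, 76.1 and 71.2 CPM in palisade and 144, 111 and 104 CPM in reference cells, and at high light 62.0, 66.8 and 37.1 against 50.3, 39.1 and 34.3 CPM. The palisade value was thus lower than the reference value in all 3 pools at low light (log2 fold change -0.70) and higher in all 3 pools at high light (0.41). The interaction was -1.06 ± 0.24 (SE; FDR = 0.00408) for *XTH19* and -0.59 ± 0.12 (SE; FDR = 0.00143) for *XTH18*, whose responses were smaller in palisade cells. The *XTH19* value did not pass in DESeq2 (adjusted p = 0.0544) or without the third pool of either light level (FDR = 0.0769 and 0.0534). For *XTH6* the interaction was -0.10 ± 0.21 (SE; FDR = 0.910).

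Between the lines, 6 of 24 tested members had a population difference that depended on the line, where 7.86% of all tested genes were called higher and 7.35% lower. Besides *XTH6* and *XTH7* these were *XTH4* at -0.55 ± 0.13 (SE; FDR = 0.00318), *XTH19* at -0.78 ± 0.11 (SE; FDR = 9.89e-06), *XTH24* at 0.53 ± 0.094 (SE; FDR = 1.99e-04) and *XTH31* at 0.78 ± 0.22 (SE; FDR = 0.0133), where positive values mean a larger palisade over reference difference in the *IQD22* line than GFP-negative over GFP-positive difference in JR11-2. *XTH19* had 25.9, 22.6 and 22.4 CPM in palisade and 38.8, 41.8 and 35.0 CPM in reference cells, and 20.8, 22.8 and 32.1 CPM in GFP-negative and 21.0, 20.8 and 29.1 CPM in GFP-positive cells. *XTH24* had 187, 237 and 341 CPM in palisade and 132, 173 and 278 CPM in reference cells, and 195, 279 and 230.0 against 222, 279 and 246 CPM in JR11-2. The groups of *XTH24* overlapped in both lines. *XTH31* had 5.95, 7.26 and 4.46 against 4.22, 7.16 and 4.54 CPM in the *IQD22* line and 2.64, 2.27 and 3.19 against 4.48, 3.89 and 3.73 CPM in JR11-2, and its interaction was lost on leaving out any of 3 pools, with FDR of up to 0.103. *XTH4* had 45.6, 54.1 and 108 against 94.7, 78.6 and 178 CPM in the *IQD22* line and 114, 119.5 and 96.1 against 146, 153 and 89.4 CPM in JR11-2, and its log2 fold changes were -0.77 and -0.21. Line and pool cannot be told apart in this comparison.

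Many members differed in level between root and leaf protoplasts. Against palisade cells without inhibitors 18 of 31 tested members were higher in root and 6 lower, where 38.2% of all tested genes were called higher and 27.1% lower. Against reference cells 17 were higher and 7 lower, where 36.7% of all tested genes were called higher and 27.4% lower. Both comparisons share the root libraries. The median log2 fold change of the members was 2.56 and 2.12, against 0.38 and 0.32 for all genes, and with upper-quartile scaling the latter moved to 0.58 and 0.46. Root and leaf libraries differ in organ, plant line and sort, which cannot be told apart.

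The members with the largest root over leaf differences were at or near 0 in leaf. *XTH20* (AT5G48070), known from the root vasculature, had 15.6, 22.9 and 13.8 CPM in root and no count in any palisade library, and was at least 104-fold higher in root against a floor of 3 counts per library. *XTH26* (AT4G28850), known from root hairs, had 5.52, 5.15 and 3.03 CPM in root and no count in palisade or reference libraries, and was at least 27.3-fold and 29.0-fold higher in root. *XTH12* had 4.27, 5.65 and 2.79 CPM in root, likewise no count in these leaf libraries, and was at least 25.3-fold and 26.9-fold higher. The 3 genes were at or below the floor in every leaf library. Without 1 root library they could not reach 2 counts in 3 libraries, so the filter left them untested whatever their root level. *XTH17* (AT1G65310), which is known from root elongation, had 104, 124 and 38.6 CPM in root and 3 counts over the 3 palisade libraries, a ratio of 1554 (95% interval, 532 to 7535). *XTH21*, known from primary root growth, had 38.6, 51.1 and 25.6 CPM in root and 2 counts over the 3 reference libraries, a ratio of 1061 (95% interval, 294 to 8763). Without any 1 root library, *XTH17* against palisade and *XTH21* against reference cells were likewise left untested by the filter, whatever their root level. *XTH8* had 106, 107 and 65.6 CPM in root and 0.168, 0.0600 and 0 CPM in palisade libraries, a ratio of 1230.1 (95% interval, 480.3 to 4515). In *XTH21*, 7.15% of 50-base windows recur elsewhere on the nuclear chromosomes, in no annotated gene, so that some of its reads could have been discarded as ambiguous.

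Other members with counts in every leaf library compared were also higher in root. *XTH14* was near the floor in leaf, with 4, 3 and 4 counts in palisade and 4, 3 and 3 in reference libraries. Its fold changes thus rest on few leaf counts. The log2 fold changes of *XTH14* were 7.66 and 7.88 over palisade and reference cells, those of *XTH15* 7.18 and 5.29, those of *XTH16* 5.89 and 4.32, and those of *XTH5* 5.21 and 4.68. *XTH15* had 174, 183 and 103 CPM in root. *XTH15* and *XTH16* were also among the members called lower in palisade than in reference cells. *XTH4* was called higher in root than in palisade cells at 1.11 ± 0.31 (SE; FDR = 0.00535), with overlapping groups, and the call was lost on leaving out any of 3 libraries, at the smallest 0.86. *XTH18* had -0.68 ± 0.29 (SE; FDR = 0.0465), under the fold limit.

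Few members were higher in leaf. *XTH6* had 0.193, 0.218 and 0.147 CPM in root and 26.3, 41.4 and 44.0 CPM in palisade libraries, at -7.63 ± 0.32 (SE; FDR = 1.43e-10), and 2.91, 5.27 and 6.03 CPM in reference libraries, at -4.61 ± 0.39 (SE; FDR = 2.55e-07). It was the member with the largest leaf over root difference against palisade cells. *XTH25* had 0.0724, 0.0396 and 0.110 CPM in root, 5.15, 5.76 and 13.8 CPM in palisade libraries, at -6.72 ± 0.54 (SE; FDR = 7.36e-08), and 2.30, 4.21 and 9.25 CPM in reference libraries, at -6.02 ± 0.61 (SE; FDR = 1.20e-06). *XTH24* had 80.2, 36.4 and 38.8 CPM in root and 243, 316 and 464 CPM in palisade libraries, at -2.72 ± 0.33 (SE; FDR = 4.75e-06), and -2.31 ± 0.34 (SE; FDR = 4.30e-05) against reference cells. No root library overlapped a leaf library for these 3 genes. *XTH27*, known from leaf veins, had 27.0, 39.3 and 30.2 CPM in root and 104, 153 and 137 CPM in palisade libraries, at -2.03 ± 0.22 (SE; FDR = 1.21e-06), and -1.94 ± 0.21 (SE; FDR = 2.42e-06) against reference cells. *XTH22* had 225, 287 and 211 against 634, 943 and 1243 CPM, at -1.97 ± 0.26 (SE; FDR = 1.20e-05), and -1.93 ± 0.24 (SE; FDR = 1.07e-05) against reference cells.

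Some neighboring members of tandem arrays differed in the organ with the higher level, and others shared it. On chromosome 5, *XTH12*, *XTH13*, *XTH25* and *XTH22* lie in a row with at most 1 gene between neighbors. *XTH12* and *XTH13* were higher in root, whereas *XTH25* and *XTH22* were higher in leaf. On chromosome 4, *XTH24*, *XTH18* and *XTH19* lie next to each other, 5161 and 1500 bases apart. *XTH24* was higher in leaf, *XTH18* was not called and *XTH19* was higher in root, at 2.81 ± 0.27 (SE; FDR = 4.21e-07) against palisade cells. Also on chromosome 4, *XTH23* and *XTH14* are 363 bases apart, and *XTH14* was higher in root while *XTH23* had a value of -0.077 ± 0.20 (SE; FDR = 0.743). By gene structure, 10 of 14 members with 3 exons and 8 of 16 tested members with 4 exons were higher in root than in palisade cells. Of all tested genes 38.2% were called higher there, and these shares were not compared by a test.

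Among the genes that make or trim xyloglucan, 12 of 20 genes were higher in root than in palisade cells and 1, *MUR3*, was lower, and against reference cells 13 were higher and *MUR3* lower. The glucan synthase gene *CSLC12* and the xylosyltransferase gene *XXT3* had the largest values, 6.40 and 6.20 against palisade cells. Together the genes called make up 65% and 70% of the list, where 38.2% of all tested genes were higher and 27.1% lower in root than in palisade cells, and 36.7% higher and 27.4% lower against reference cells.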

How the data were processed

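Per the labels, messenger RNA was sequenced as stranded, single-end 50-base reads. The authors aligned them to TAIR10 with TopHat 2.0.9 after CASAVA 1.8.2, and deposited unnormalized counts per gene from HTSeq 0.6.1, which discards reads that align to several places (4.33% to 9.75% of the reads listed), so near-identical genes can lose reads. Organelle genes (279) were left out. Genes with at least 2 counts in 3 libraries were tested by the quasi-likelihood method of edgeR 4.0.16 after TMM scaling (R 4.3.3), with p-values adjusted over all genes by Benjamini-Hochberg. SE is the log2 fold change over the square root of F, which is approximate. The script was tested on simulated data.

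The members and lists were chosen with earlier results of these data known. Values in every library are given for *XTH6* and, in each leaf comparison, for called members of at least 1 CPM in the higher group. In root comparisons they are given for at most 5 members in each direction, and in interactions for members with FDR < 0.05. Named members outside this rule were chosen after their values were seen. Pool letters pair the populations, and deviations of same-pool libraries from group means correlated at mean r = 0.446 to 0.634. Root replicates carry only a number, and p-values measure the spread between those libraries, which may be technical. Intervals are exact (binomial) at 95% and, with the floors, cover counting error only. Alternatives were DESeq2 1.42.0, upper-quartile scaling, other count filters, the block and leaving out libraries.

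Positions, lengths and the sequences printed come from RefSeq's TAIR10.1, not the build of the counts. Besides the 4 motifs shown, 11 were searched on both strands. They were the G box spelled CACGTG, the auxin element spelled TGTCTC, the evening element spelled AAAATATCT, the MYB site spelled ACCTACC or else ACCAACC, the GATA motif spelled GATAAG, and the CAMTA site spelled CGCGT (which lies within CGCGTT) or otherwise CGTGT. The homeodomain site was spelled AATTATT, in a further form AATGATT, in another form AATAATT and in the last form AATCATT. The remaining ones were the GCC box spelled GCCGCC and the abscisic acid element spelled ACGTGG or otherwise ACGTGT. The PIF site was spelled CACATG and the TCP site GGNCCC. These 11 motifs occurred in from 0 members, such as the G box (6.49% of all windows), to 13 members for the CAMTA site (26.2% of all windows). The shares were not compared by a test.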

Additional observations from a re-analysis of the deposited data

Results flagged for a closer look

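Tests of interaction gave 13 values in which the effect of a condition on an XTH gene differed between populations or between lines at FDR < 0.05. Each is a difference of 2 log2 fold changes. Tested members numbered 25 for light, 24 for inhibitors and 24 for line. Of all tested genes, 1.83% were called higher and 3.71% lower for light. The shares were 0.346% and 4.4% for inhibitors, and 7.86% and 7.35% for line. Leaving out single pools lost *XTH19* for light, *XTH18* and *XTH19* for inhibitors and *XTH31* for line. Without the replicate block no member was called. For the response to high light, palisade minus reference cells, the differences were 1.09 for *XTH4*, -0.59 for *XTH18* and -1.06 for *XTH19*. For the difference without against with inhibitors, palisade minus reference cells, they were -2.03 for *XTH23*, -0.98 for *XTH22*, -0.74 for *XTH19* and -0.55 for *XTH18*. For the difference between populations, the *IQD22* line minus JR11-2, they were -2.97 for *XTH7*, 0.97 for *XTH6*, -0.78 for *XTH19*, 0.78 for *XTH31*, -0.55 for *XTH4* and 0.53 for *XTH24*. The reference population and the GFP-positive population were sorted by different marks, and the part of this in the differences between lines was not tested.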

How the results depend on the processing

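Of 118 calls on members, 81 were made under every alternative that could be computed and none reversed. With at least 10 counts in every library only 66 of the 118 could be tested, and members untested under an alternative count as unchanged. DESeq2 lost 10, upper-quartile scaling 4, and leaving out 1 library or pool 48 of 601 tests. With at least 10 counts in every library, which leaves fewer genes to test, the members called between populations numbered 3 without inhibitors, 3 at low light, 3 at high light and 1 in JR11-2, those called for light in palisade cells 3, and those called in root 9 and 10. DESeq2 called 3 at high light between populations. Without the replicate block, populations differed in 4 members without inhibitors and in 0 in JR11-2 (where edgeR then called 73 of all genes), and the interactions were called for 0 members each for light, inhibitors and line. Unpaired comparisons share only a number, and the block there cost 1 call and changed the *XTH6* light value in reference cells.

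Leaving out 1 pool or library gave 5 to 8 members between populations without inhibitors, 3 to 4 at high light, 3 to 5 in JR11-2, and 2 to 3 for the inhibitor interaction. Uncalled values of *XTH6* changed sign. For inhibitors in palisade cells these were 0.033 with 10 counts and -0.23 to 0.19 on leaving out a library. In reference cells they were 0.0091 in DESeq2, 0.065 with 10 counts and -0.26 to 0.22 on leaving out a library. For the light interaction the range was -0.24 to 0.19, and for the inhibitor interaction 0.029 without a filter and -0.21 to 0.11. The causes were not tested.

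Over all genes, 10 counts in every library gave 911, 699, 799 and 268 calls between populations and 9036 and 9193 in root. The light interaction had 587 calls in DESeq2, 9 without the block and 611 without high light pool 2. The inhibitor interaction had 46 without the block and 582 and 633 without the third pool of either group. The line interaction had 1939 in DESeq2, 355 without the block and 1903 without JR11-2 pool 2, and its share of higher calls moved from 51.7% to 40.0% with upper-quartile scaling. For light the share moved from 61.0% to 50.6% in palisade and from 60.5% to 52.0% in reference cells. Depth limits *XTH1* and *XTH2* everywhere and *XTH33* and *XTH29* in leaf.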
